A study of Mus musculus with 24 samples.

Results

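The genes described here are 9 kinases of the c-Jun N-terminal kinase (JNK) pathway in mouse liver, taken by symbol from a fixed list out of 24411 genes counted in every library. They fall into 3 tiers: the JNKs Mapk8 and Mapk9, the kinases that phosphorylate them, Map2k4 and Map2k7, and 5 MAP3Ks, Map3k5, Map3k7, Map3k8, Map3k11 and Map3k14. All 9 passed the filter on low counts in every comparison. RNA was sequenced from the livers of 14 single mice without acetaminophen (APAP) at 0 h and from 10 pools, each of 3 mice, taken 12, 24, 48, 72 or 96 h after 300 mg/kg APAP. All mice were male, 2.5 months old and fasted for about 16 h.

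Both cohorts carried floxed E2f7 and E2f8, genes of a pair of transcriptional repressors of the cell cycle. In the first cohort, deletion was lifelong and driven by Alb-Cre, a transgene active in the liver lineage: 4 knockout mice (LKO) and 4 mice that the labels call wild-type and the methods describe as floxed littermates without Cre (Control), on a mixed, mostly FVB background. After APAP this cohort gave 1 Control and 1 LKO pool at each of the 5 times. In the second cohort, floxed mice received at 2 months of age an AAV8 vector in which the hepatocyte promoter TBG drove Cre (3 mice, HKO) or no gene (3 mice, Null), and these were sequenced at 0 h only. Mice of both cohorts carried the Cre reporter R26R-mTmG. LKO livers served as the model rich in diploid hepatocytes and HKO livers as deletion in adults without a change in ploidy, and the series asked how diploid-rich livers fare after APAP injury. No pool has a second library of the same genotype and time.

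JNK signaling runs through 3 kinase tiers. A MAP3K, switched on by oxidative stress, cytokine receptors or other signals, phosphorylates the MAP2Ks MKK4 and MKK7, and these together phosphorylate JNK1 and JNK2, which act on c-Jun and other substrates and on mitochondria. In APAP overdose, the MAP3Ks ASK1 and MLK3 and the kinase MKK4 are known to carry the stress signal to JNK, and sustained JNK activity at mitochondria drives hepatocyte necrosis. These steps are phosphorylations, so the RNA levels given here say how much transcript of each kinase was present and nothing of its activity.

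Reads assigned to genes numbered 12665686 to 19499897 per library (median 16500386). Levels are in CPM, each count relative to the TMM-scaled library size, and 3 counts, taken as the limit of detection, correspond to 0.143 to 0.254 CPM. A gene was called changed where edgeR's quasi-likelihood test gave a Benjamini-Hochberg adjusted p under 0.05 over all genes tested and a fold of at least 1.5. Libraries at 0 h come from individual mice, and each later time has 1 pool per genotype, so tests at those times rest on the spread estimated over all libraries of the fit. Whole-gene counts could not check the deletion. E2f7 had 0 to 66 counts per library, and mean E2f8 was not lower in the knockouts, at 16.2 ± 3.14 CPM (SD, n = 4) in Control, 25.1 ± 6.95 (n = 4) in LKO, 19.9 ± 5.91 (n = 3) in Null and 55.9 ± 26.7 (n = 3) in HKO mice. Between the LKO and Control pools, E2f8 was called higher in LKO, by 1.53 ± 0.21 on the log2 scale (edgeR, adjusted p = 0.0237). Whole-gene counts include exons outside the deletion, and counts per exon were not analysed here.

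In summed markers of liver cell types, hepatocyte genes lay between 50741 and 119047 CPM in the 8 mice of the Alb-Cre cohort at 0 h, and recruited macrophage genes between 35.0 and 72.7 CPM. The macrophage sum was in large part Spp1, at 27.8 to 65.3 CPM in these mice. After APAP, the sum spanned 46.2 to 300.4 CPM in Control pools and 27.5 to 219.6 CPM in LKO pools. In bulk liver, fewer cells of a type and less RNA per cell cannot be told apart.

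Before APAP, 6 of the 9 kinases stood at similar levels per length of transcript, Mapk8 was lower, and Map3k14 and Map3k8 were the lowest. Dividing CPM by exon length, the mean over the 14 mice at 0 h was 15.3 ± 1.51 CPM per kb (SD, n = 14) for Map3k11, 14.2 ± 6.59 for Map3k5, 12.9 ± 2.21 for Map2k7, 12.0 ± 1.22 for Mapk9, 11.3 ± 1.62 for Map2k4 and 9.28 ± 1.01 for Map3k7. The order among the first 5 of these was not stable across mice, since each exceeded the next in only 7 to 9 of the 14. Map2k4 lay above Map3k7, Map3k7 above Mapk8 and Mapk8 above Map3k14 in all 14 mice. Mapk8 averaged 3.84 ± 0.56 CPM per kb, Map3k14 0.91 ± 0.24 and Map3k8 0.80 ± 0.24, and the last pair crossed, with Map3k14 higher in 7 of 14 mice. Of the JNK transcripts per length, those of Mapk9 were the majority in every mouse, with Mapk8 at 20.1% to 30.0% of the pair.

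**Figure D1:**
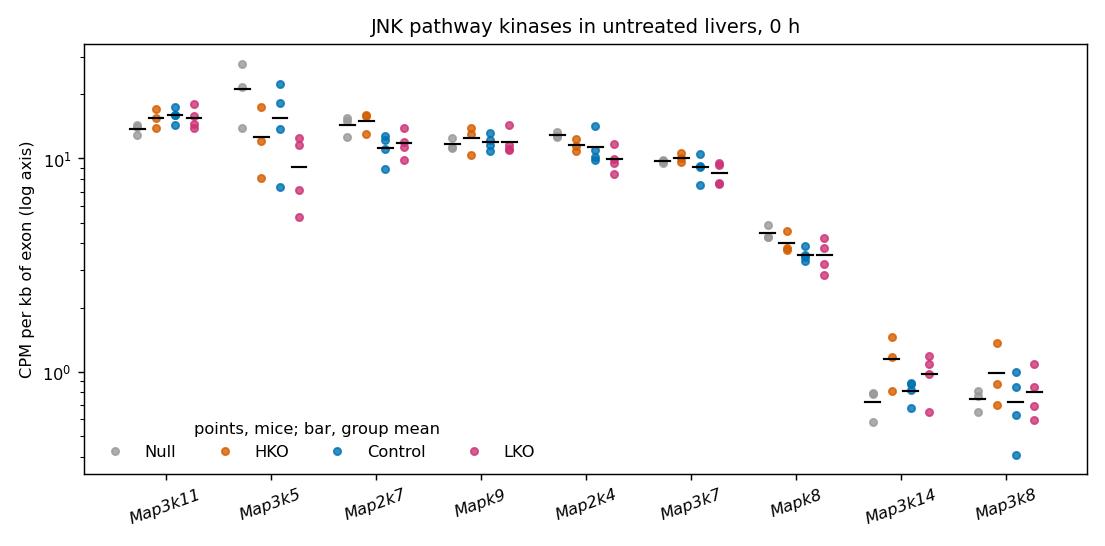
Level of each kinase in the 14 livers at 0 h, in CPM per kb of exon on a log axis, with genes in order of their mean; points are mice, bars are group means, and colors mark the Null, HKO, Control and LKO groups. Map3k5 spreads most among mice, and Map3k14 and Map3k8 lie near 1 CPM per kb in every group.

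No kinase of the 9 passed the test in either knockout at 0 h. In HKO against Null mice 0 of 9 were called, where 0.96% of the 12397 genes tested were (0.419% higher and 0.54% lower), and in LKO against Control mice 0 of 9 were called, where 0% of 12426 genes were and 352 genes had an unadjusted p under 0.05 (DESeq2 called 3 genes). The difference between the LKO and the HKO effect was called for 0 of 9 kinases and for 0% of 12945 genes, with 579 genes at an unadjusted p under 0.05 and 21 called by DESeq2. Log2 differences lay between -0.75 and 0.68 in HKO mice, with a median of 0.06 beside 0.01 over all genes, and between -0.75 and 0.26 in LKO mice, with a median of 0.00 beside 0.00.

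The kinase furthest from its controls at 0 h in both cohorts was Map3k5, which encodes ASK1, the redox-sensitive MAP3K that is held inactive by reduced thioredoxin. Its levels were 152, 118 and 76.0 CPM in Null mice and 95.1, 66.1 and 43.9 CPM in HKO mice. In the Alb-Cre cohort they were 40.1, 122, 99.5 and 74.6 CPM in Control mice and 63.0, 67.9, 39.0 and 28.9 CPM in LKO mice. The groups overlapped in both cohorts, and Map3k5 varied more from mouse to mouse than any other member. The log2 difference was -0.75 ± 0.29 (SE; edgeR, adjusted p = 0.331) in HKO and -0.75 ± 0.35 (adjusted p = 0.999) in LKO mice, and the 2 effects differed by -0.01 ± 0.53 (adjusted p = 1). The 2 cohorts share no mice. Map3k14 lay next furthest from the controls in HKO mice, at 3.06 ± 0.50 CPM in Null and 4.88 ± 1.37 CPM in HKO mice (log2 difference 0.68 ± 0.28, edgeR adjusted p = 0.35). Its values did not overlap, but the highest Null mouse, at 3.37 CPM, and the lowest HKO mouse, at 3.45 CPM, were close.

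After APAP 5 of the kinases rose at 12 h, and none of these was called higher at 72 h. At 12 h, in the Control and LKO pools fitted together against the 8 mice at 0 h, 5 of the 9 kinases rose and 0 fell, where 17.4% of 12490 genes rose and 14.8% fell. These were Mapk8, both MAP2Ks, Map3k8 and Map3k14. The 24 h pools had 3 kinases higher and 0 lower (13.9% and 12.6% of all genes). The 48 h pools had 1 higher and 1 lower (9.02% and 6.57%), and the 72 h pools 0 higher and 1 lower (10.3% and 5.64%). In the 96 h pools 0 of 9 were called (0.312% of all genes higher and 0.12% lower; 1992 genes had an unadjusted p under 0.05 and DESeq2 called 325). Over the 5 times in order, the median log2 change of the 9 was 0.70, -0.13, -0.02, -0.24 and -0.14, beside 0.00, -0.01, -0.01, -0.04 and -0.02 over all genes. The 5 tests share the same mice at 0 h.

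**Figure D2:**
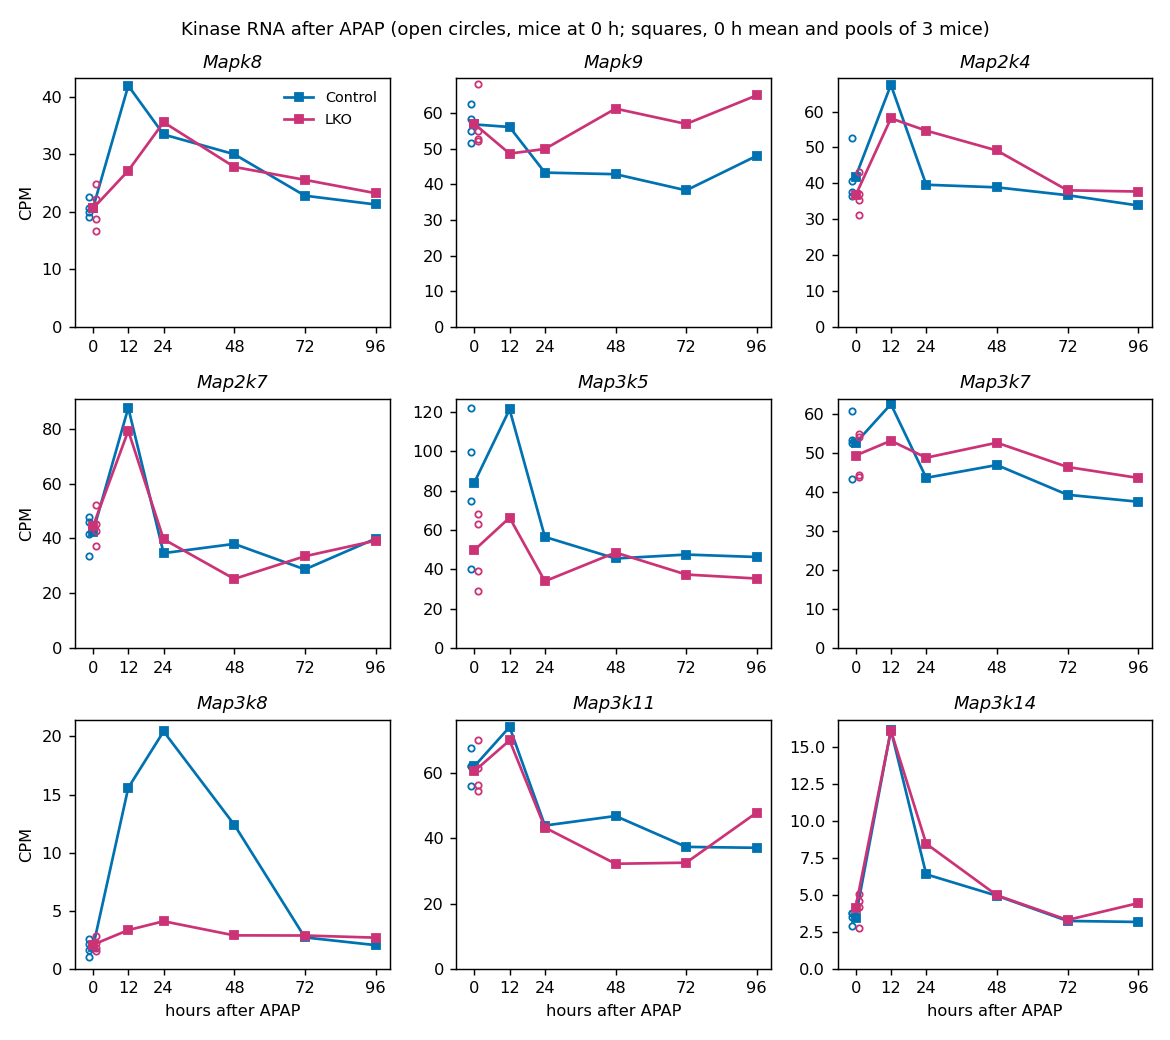
Level of each kinase in CPM against hours after 300 mg/kg APAP in Control and LKO livers, with open circles for single mice at 0 h and squares for the 0 h mean and the pools of 3 mice; the lines join 1 library per time. The widest gap between the genotypes, as a fold, is that of Map3k8, with Control pools at 12.4 to 20.4 CPM and LKO pools at 2.88 to 4.09 CPM from 12 to 48 h, while Map3k14 reaches 16.1 CPM in both at 12 h.

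**Figure D3:**
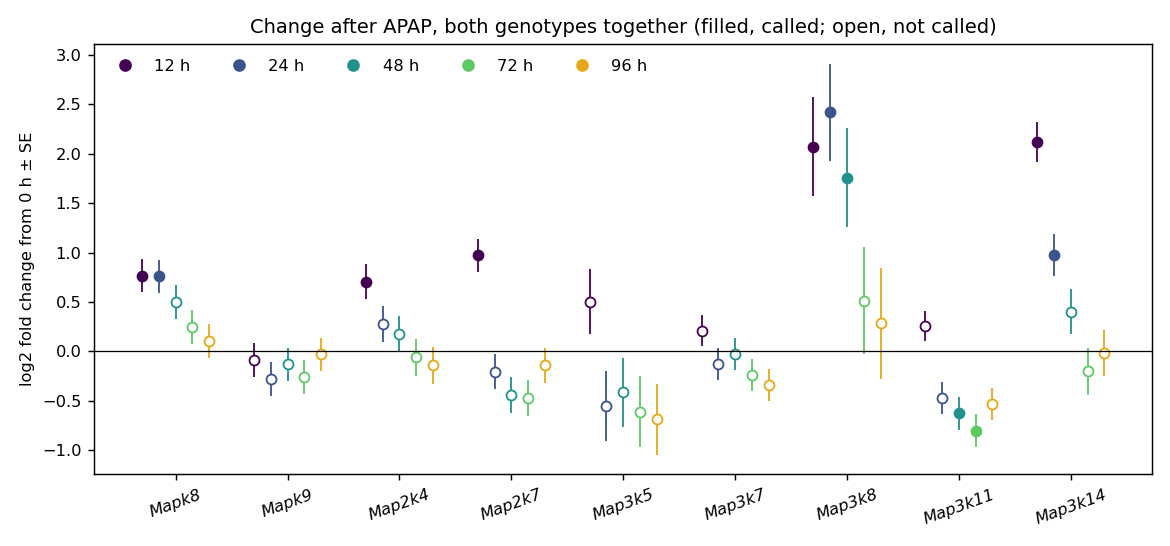
Fitted log2 fold change from 0 h of each kinase at 5 times after APAP, both genotypes together, with bars for SE (edgeR, 2 pools against 8 mice at each time); filled points passed both the adjusted p and the fold limit. The filled points above 0 are gone by 72 h, and Map3k11 is filled below 0 at 48 and 72 h.

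Of the JNKs, Mapk8 rose and Mapk9 was not called at any time. Mapk8 encodes JNK1 and Mapk9 JNK2, close relatives that share substrates. Mapk8 stood at 19.2, 20.1, 22.6 and 20.6 CPM in Control mice and 18.7, 16.6, 24.8 and 22.2 CPM in LKO mice. Control pools had 41.9, 33.4, 30.0, 22.8 and 21.3 CPM at 12, 24, 48, 72 and 96 h, and LKO pools had 27.1, 35.6, 27.8, 25.6 and 23.2 CPM. The pools of 12 to 72 h lay above every mouse of their own genotype at 0 h, those of 72 h by a small margin, and those of 96 h lay within the mice. The log2 change was 0.77 ± 0.17 at 12 h (edgeR, adjusted p = 0.00226) and 0.76 ± 0.17 at 24 h (adjusted p = 0.00301), and 0.50 ± 0.17 at 48 h, where it missed the threshold (adjusted p = 0.0514). In LKO libraries alone the 12 h change was 0.40 (adjusted p = 0.327), against 1.06 (adjusted p = 0.00936) in Control libraries alone, and the 24 h change was 0.81 (adjusted p = 0.077) and 0.73 (adjusted p = 0.0529) in LKO and Control libraries alone, in fits that assume a lone pool varies like the mice. The difference between these fits was not tested.

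Mapk9 had 62.4, 51.7, 54.8 and 58.2 CPM in Control mice and 52.1, 52.6, 68.1 and 54.8 CPM in LKO mice. In Control pools it was 56.0, 43.3, 42.8, 38.3 and 48.0 CPM from 12 to 96 h, below every Control mouse from 24 h on. In LKO pools the level was 48.6, 49.9, 61.2, 56.9 and 64.9 CPM, below every LKO mouse at first and within them from 48 h on. No time was called for Mapk9, with log2 changes of -0.28 to -0.03 and adjusted p of 0.236 to 0.947 (edgeR).

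As shares of JNK transcripts per length, Mapk8 made up 20.1% to 25.2% of Mapk8 and Mapk9 together in the 4 Control mice and 20.5% to 24.8% in the 4 LKO mice. In Control pools the share was 37.9%, 38.7%, 36.4%, 32.7% and 26.6% at 12, 24, 48, 72 and 96 h, above every Control mouse at each time. In LKO pools it was 31.3%, 36.8%, 27.0%, 26.8% and 22.6%, above every LKO mouse until 72 h and within them at 96 h. The share was lower in LKO than in Control at 5 of 5 times, by 0.38 on average on the log2 ratio scale (-1.31 against -0.94, n = 5 pairs). The 2-sided exact permutation test over the 5 pairs gave the smallest p that 5 pairs allow, which does not reach 0.05 (adjusted p = 0.375 over the 6 ratio tests made). At 0 h the log2 ratio differed by -0.02 between LKO and Control (exact permutation p = 0.943) and by -0.23 between HKO and Null (exact permutation p = 0.2, smallest possible 0.1).

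**Figure D4:**
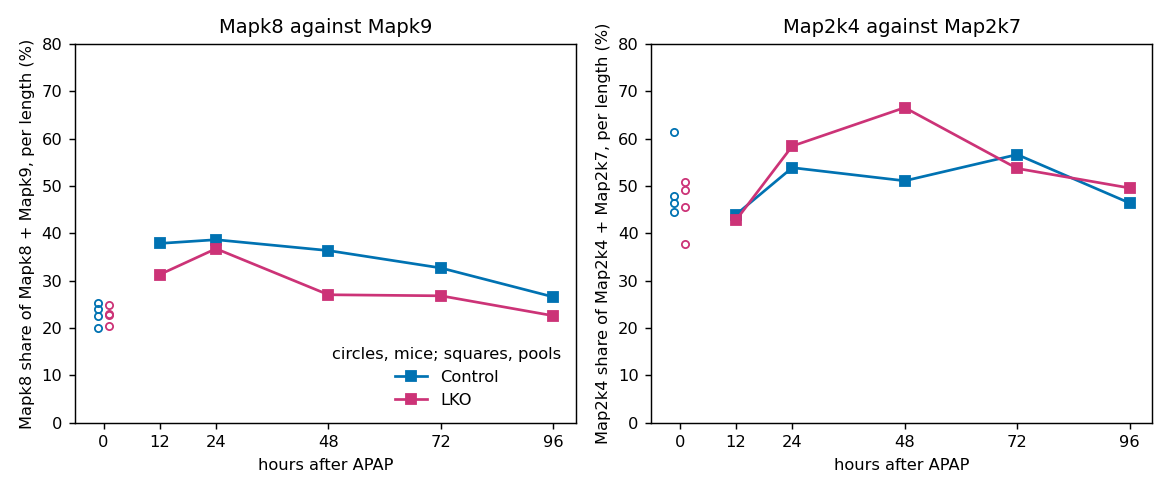
Share of Mapk8 in Mapk8 plus Mapk9 and of Map2k4 in Map2k4 plus Map2k7, in percent of CPM per kb, against hours after APAP; circles are mice at 0 h and squares are pools. The Mapk8 share lies at 20.1% to 25.2% in the mice and peaks at 38.7% in the Control and 36.8% in the LKO pool of 24 h.

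The sequences just before the start sites of this pair are shown because Mapk8 was called after APAP and Mapk9 was not. RefSeq (GRCm38.p6) gives 11 start-site windows for 8 of the members, and 250 upstream bases of each were searched on both strands for TGACG, the core of the cAMP response element bound by ATF proteins and by Jun with ATF2, for the AP-1 letters TGANTCA, and for the E2F letters TTTNNCGC. Both printed windows hold TGACG or its reverse complement, in capitals, as do 17.8% of all 32851 windows of that length. The Mapk8 window has the letters 2 times and lies on the minus strand, and the Mapk9 window has them 1 time. A window of Map2k4, called at 12 h, and that of Map3k7, not called at any time, also had them 1 time each.
Mapk8, chr14:33447159-33447408, minus strand: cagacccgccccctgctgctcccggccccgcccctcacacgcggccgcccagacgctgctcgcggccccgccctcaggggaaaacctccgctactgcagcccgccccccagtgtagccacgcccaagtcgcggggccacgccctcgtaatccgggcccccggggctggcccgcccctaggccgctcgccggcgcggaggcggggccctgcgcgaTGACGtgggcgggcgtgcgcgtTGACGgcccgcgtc
Mapk9, chr11:49846501-49846750, plus strand: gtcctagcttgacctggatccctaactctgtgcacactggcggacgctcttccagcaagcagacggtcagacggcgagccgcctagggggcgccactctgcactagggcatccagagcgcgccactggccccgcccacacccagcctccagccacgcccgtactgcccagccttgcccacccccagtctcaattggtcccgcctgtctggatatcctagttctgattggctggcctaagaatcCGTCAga
The second annotated Mapk8 start had neither motif. TTTNNCGC was found in 0 of the 11 windows and in 4.28% of all windows, which says only that these letters are not in them.

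Both MAP2Ks rose at 12 h. Map2k4 (MKK4), which prefers the tyrosine of JNK's activation loop, was at 37.7, 40.5, 52.7 and 36.4 CPM in Control mice and 36.9, 31.2, 43.2 and 35.3 CPM in LKO mice. At 12 h the Control pool had 67.4 CPM and the LKO pool 58.1 CPM, above all mice. The change was 0.70 ± 0.18 on the log2 scale (edgeR, adjusted p = 0.00576), with 0.73 in Control (adjusted p = 0.0631) and 0.67 in LKO libraries alone (adjusted p = 0.094). From 24 to 96 h Control pools had between 33.9 and 39.6 CPM, while LKO pools had 54.7 CPM at 24 h and 49.2 CPM at 48 h, above every LKO mouse, and 38.1 and 37.7 CPM after that. None of these later times was called.

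Map2k7 (MKK7), which prefers the threonine and answers mainly to cytokines, was at 41.7, 47.8, 33.7 and 46.2 CPM in Control mice and 45.2, 52.3, 42.6 and 37.2 CPM in LKO mice. The level reached 87.7 CPM in the Control and 79.3 CPM in the LKO pool at 12 h, the 2 highest values of the gene, and was at 25.2 to 39.9 CPM in all 8 later pools. The rise at 12 h was 0.97 ± 0.16 on the log2 scale (edgeR, adjusted p = 0.000358), with 1.09 in Control (adjusted p = 0.0128) and 0.84 in LKO libraries alone (adjusted p = 0.0501). Of the later log2 changes, -0.21 to -0.47 from 24 to 72 h, the nearest to a call was that of 72 h (adjusted p = 0.085).

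Of the 11 windows, the downstream start of Map2k7 was the one that held the AP-1 letters TGANTCA, present in 6.75% of all windows, and it is printed for that reason with the match in capitals.
Map2k7, chr8:4239855-4240104, plus strand: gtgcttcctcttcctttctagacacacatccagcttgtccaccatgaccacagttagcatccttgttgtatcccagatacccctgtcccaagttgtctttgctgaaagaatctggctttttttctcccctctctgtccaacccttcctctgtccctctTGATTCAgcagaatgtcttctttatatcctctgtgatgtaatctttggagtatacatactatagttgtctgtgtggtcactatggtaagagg
The upstream Map2k7 start, at the gene's annotated 5′ end, had none of the 3 motifs.

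The log2 ratio of Map2k4 to Map2k7 per length differed by -0.25 between LKO and Control mice at 0 h (exact permutation p = 0.514), by -0.22 between HKO and Null mice (exact permutation p = 0.3) and by 0.23 between the LKO and Control pools (exact permutation p = 0.312, higher in LKO at 3 of 5 times). The largest gap was at 48 h, when Map2k4 made up 66.6% of the pair in the LKO and 51.1% in the Control pool.

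Among the MAP3Ks, Map3k8 rose from 12 to 48 h after APAP, with Control pools at over 4 times the level of LKO pools, although the genotype difference over all 5 times missed the threshold. The gene encodes TPL2 (COT), which binds NF-κB1 p105 and the adaptor ABIN2 and, released from them by inflammatory signals, activates MEK and, in some cells, JNK kinases. The study itself named Map3k8, with Map3k9, as lower in LKO livers from these libraries. The direction of Map3k8 here is therefore not independent evidence. The level was 2.17, 2.55, 1.61 and 1.05 CPM in Control mice and 1.78, 2.79, 2.19 and 1.53 CPM in LKO mice, from 17 to 51 counts. Control pools had 15.6, 20.4, 12.4, 2.70 and 2.04 CPM at 12, 24, 48, 72 and 96 h (237, 343, 244, 41 and 29 counts). LKO pools had 3.33, 4.09, 2.88, 2.87 and 2.68 CPM (56, 80, 51, 60 and 49 counts). The Control pools of 12 to 48 h stood well above all mice and all LKO pools, and from 72 h on the genotypes were level to within 0.38 on the log2 scale.

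On the log2 scale with a prior count of 2, Map3k8 in Control pools was 3.07, 3.45 and 2.74 above the Control mice at 12, 24 and 48 h, that is 8.37-, 11.0- and 6.68-fold, and 0.59 and 0.20 above them at 72 and 96 h. In LKO pools the changes from the LKO mice were 0.69, 0.98, 0.48, 0.48 and 0.39, and the first 4 of these pools lay above every LKO mouse, those of 48 and 72 h by less than 0.1 CPM. With both genotypes fitted together the change from 12 to 48 h was 2.07 ± 0.50 (edgeR, adjusted p = 0.00458), 2.42 ± 0.49 (adjusted p = 0.00191) and 1.76 ± 0.50 (adjusted p = 0.0256). In Control libraries alone it was called at these times (adjusted p = 0.00211, 0.00316 and 0.00678), and in LKO libraries alone it was not (adjusted p = 0.304, 0.147 and 0.581).

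Across the 5 pairs of pools, with time as a block, 0 of 9 kinases differed between LKO and Control, where 0.579% of 12782 genes did (0.25% higher and 0.329% lower). Map3k8 came with a log2 difference of -1.35 ± 0.43 (edgeR, adjusted p = 0.161), lower in LKO at 3 of 5 times: Control exceeded LKO 4.55-, 4.88- and 4.18-fold at 12, 24 and 48 h and was 0.95 and 0.77 times LKO at 72 and 96 h. DESeq2, which called 606 of the 12782 genes against 74 by edgeR, called it (adjusted p = 0.0158), and over the other alternatives the adjusted p lay between 0.0547 and 0.764. The difference in the pools less that at 0 h, a test added after the data were seen, was -1.52 ± 0.60 (edgeR, adjusted p = 0.468), with 0% of 12490 genes called and 1212 at an unadjusted p under 0.05. Map3k5 was the other member with an unadjusted p under 0.05, where 2284 of the 12782 genes had one, at -0.47 ± 0.17 (edgeR, adjusted p = 0.186), with lower values in LKO at 4 of 5 times. Less the difference at 0 h, it was 0.28 ± 0.41 (edgeR, adjusted p = 0.843).

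Sums of cell type markers in the same pools were as follows. The 6 hepatocyte genes summed to 103329, 103963 and 88219 CPM in Control and 62016, 80469 and 93796 CPM in LKO pools at 12, 24 and 48 h, most of it Alb. Apoa1 and Apob were higher in Control at each of these times, and Tat was higher in LKO. Cyp2e1 was at 4287, 1184 and 447 CPM in Control and 3433, 2463 and 2201 CPM in LKO pools. The 6 stellate genes summed to 234, 236 and 305 CPM in Control and 160.2, 260 and 307 CPM in LKO pools. The 9 neutrophil genes summed to 17.7, 14.4 and 33.6 CPM in Control and 17.9, 32.7 and 10.6 CPM in LKO pools at 12, 24 and 48 h, with Camp at 0 in 6 of the 10 pools. The 7 recruited macrophage genes summed to 77.1, 73.3 and 273.7 CPM in Control and 34.8, 65.4 and 139.4 CPM in LKO pools. Spp1, which cholangiocytes also express, made up 37.8, 22.8 and 192 CPM of these Control sums and 13.9, 35.5 and 74.1 CPM of the LKO sums. The 4 cholangiocyte genes summed to 132.4, 32.2 and 25.1 CPM in Control and 22.4, 14.6 and 12.7 CPM in LKO pools, most of it Sox9. Krt19 had 2.04, 0.77 and 0.81 CPM in Control and 1.9, 0.97 and 0.45 CPM in LKO pools. Epcam had 5.2, 1.79 and 1.17 CPM in Control and 0.60, 1.18 and 1.13 CPM in LKO pools, and Krt7 was at 0 in the LKO pool of 12 h. The 6 Kupffer cell genes summed to 106, 74.8 and 146 CPM in Control and 96.4, 113 and 251 CPM in LKO pools, and the 5 endothelial genes to 190, 137 and 169 CPM and to 180, 136 and 159 CPM. The 7 lymphocyte genes summed to 1.51, 1.97 and 2.54 CPM in Control and 4.17, 2.81 and 8.34 CPM in LKO pools. The part of these cell types in the Map3k8 difference was not tested.

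Over the 18 libraries of the Alb-Cre cohort, the genes whose log2 CPM ran most like that of Map3k8 were Pdlim1 (Pearson r = 0.942), Pgm1 (0.934), Slc16a6 (0.928), Epn2 (0.925) and Hilpda (0.918), out of 10973 genes compared. These r values describe 18 libraries of 2 genotypes and 6 times, and 275 genes reached at least 0.8. Hilpda, a lipid droplet protein gene, had 220, 267 and 141 CPM in Control and 18.0, 45.6 and 3.27 CPM in LKO pools at 12, 24 and 48 h. Slc16a6, a ketone body transporter gene, had 183, 94.7 and 56.3 CPM in Control and 15.5, 13.2 and 4.96 CPM in LKO pools. By 96 h the Control pool had 2.67 CPM of Hilpda and 3.09 CPM of Slc16a6, beside means of 1.71 and 4.15 CPM in Control mice. The member nearest to Map3k8 was Mapk8 (r = 0.775), and the one furthest from it was Mapk9 (r = -0.378).

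Map3k14 rose at 12 h, to 16.1 CPM in the pool of each genotype. It encodes NIK, the kinase of non-canonical NF-κB signaling, whose protein is normally kept low by degradation. It was at 2.87, 3.47, 3.73 and 3.76 CPM in Control mice and 2.74, 4.60, 4.14 and 5.02 CPM in LKO mice. After the shared 16.1 CPM of 12 h, the 24 h Control pool had 6.37 and the LKO pool 8.44 CPM, all above every mouse. From 48 h on the pools had 3.16 to 4.96 CPM, within the mice but for the Control pool of 48 h. The log2 change was 2.12 ± 0.20 at 12 h (edgeR, adjusted p = 2.59e-06; 2.26 in Control and 1.96 in LKO libraries alone, both called) and 0.98 ± 0.21 at 24 h (adjusted p = 0.00312). In Control libraries alone the 24 h change was 0.92 (adjusted p = 0.0771), and in LKO libraries alone it was 1.05 (adjusted p = 0.0951). Between the LKO and Control pools it differed by 0.16 ± 0.20 (adjusted p = 0.707), with a log2 gap of 0.00 at 12 h. With both genotypes fitted together, Map3k8 and Map3k14, the MAP3K RNAs lowest at 0 h, had the largest changes of the 9 kinases at 12 h. In LKO libraries alone the 12 h change of Map3k8 was 0.69, below that of Map2k7 at 0.84.

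Map3k11, which encodes MLK3, a MAP3K with a known part in JNK activation by APAP, fell late. It was at 62.2, 62.2, 55.9 and 67.8 CPM in Control mice and 70.2, 56.3, 54.4 and 61.4 CPM in LKO mice. The Control pool of 12 h, at 74.1 CPM, was above every Control mouse, and the LKO pool of that time was within its mice. Control pools then had 43.9, 46.8, 37.4 and 37.1 CPM and LKO pools 43.3, 32.2, 32.5 and 47.9 CPM at 24, 48, 72 and 96 h. All 8 of these later pools lay below every mouse of their genotype. Calls came with log2 changes of -0.63 ± 0.16 at 48 h (edgeR, adjusted p = 0.0156) and -0.80 ± 0.16 at 72 h (adjusted p = 0.00317). The change at 24 h, -0.47 ± 0.16, was short of the fold limit (adjusted p = 0.0349), and that of the last time, -0.53 ± 0.16, missed the threshold (adjusted p = 0.134). The 48 h call was lost without LKO mouse 1, where the change of -0.58 fell short of the fold limit. Neither call held within 1 genotype, with -0.36 in Control (adjusted p = 0.269) and -0.90 in LKO libraries alone (adjusted p = 0.131) for 48 h, and -0.66 (adjusted p = 0.0837) and -0.87 (adjusted p = 0.157) for 72 h.

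Map3k5 and Map3k7 were not called at any time. Map3k5 had 121 CPM in the Control and 66.2 CPM in the LKO pool at 12 h and 33.9 to 56.4 CPM in the 8 later pools, all within the wide range of their mice, with log2 changes of 0.50 ± 0.33 at 12 h (edgeR, adjusted p = 0.239) and -0.41 to -0.69 later (adjusted p = 0.255 to 0.437). Map3k7 encodes TAK1, the MAP3K downstream of TNF, IL-1 and TGF-β receptors that acts with the TAB proteins. It was at 43.2 to 60.7 CPM in the 8 mice. Its Control pools had 62.4, 43.6, 46.8, 39.2 and 37.4 CPM and its LKO pools 53.0, 48.7, 52.5, 46.3 and 43.5 CPM, with log2 changes of -0.34 to 0.21 (adjusted p = 0.309 to 0.944). Map3k9 (MLK1) is a further MAP3K of the mixed-lineage group, which the study also named as lower in LKO livers. It had 0 to 16 counts per library and fell below the filter, so no comparison was made for it.

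The genes around these kinases had more calls at 12 h than at any later time, as all genes did. Of 72 other genes of the pathway, listed by role with earlier results of these data known, 68 could be tested and 28 rose and 7 fell at 12 h (median log2 change 0.31), where 17.4% of all genes rose and 14.8% fell. Later, 12 rose and 12 fell (24 h; 13.9% and 12.6% of all genes), 5 rose and 2 fell (48 h; 9.02% and 6.57%), and 3 rose and 7 fell (72 h; 10.3% and 5.64%), with 0 called in the end (96 h; 0.432% of all genes; 11 had an unadjusted p under 0.05 in edgeR). Beside that 17.4% of all genes higher at 12 h stood the partners and regulators of the MAP3Ks, with 9 of 17 higher and 0 lower, and the JNK phosphatases, with 4 of 5 higher, while the MAP4Ks, with 2 of 7 higher, were nearer to the share of all genes. Among the JNK substrates 5 of 8 were higher and 1 lower, and other MAP3Ks split into 4 higher and 4 lower of 14 tested.

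The 5 largest changes of these genes at 12 h were those of Atf3, a stress-induced factor that pairs with Jun, at 6.20 ± 0.37 on the log2 scale (edgeR, adjusted p = 3.54e-08), of Gadd45a at 4.25 ± 0.51 (adjusted p = 2.38e-05) and Gadd45b at 3.46 ± 0.44 (adjusted p = 3.83e-05), of Dusp10, a phosphatase of JNK and p38, at 3.34 ± 0.36 (adjusted p = 9.58e-06), and of Map3k6, which encodes the ASK1 partner ASK2, at 3.04 ± 0.51 (adjusted p = 0.000331). Gadd45 proteins bind MAP3K4, and Gadd45b also binds and inhibits MKK7, whose RNA rose at the same time. Tnip2, which encodes the ABIN2 adaptor of Map3k8, rose by 1.49 ± 0.24 and Nfkb1, the gene of p105, by 0.61 ± 0.19. Tab1, Tab2 and Tab3, the partners of TAK1, rose by 1.26, 0.77 and 0.78 while Map3k7 itself had 0.21 ± 0.16.

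At 24 h the largest called changes were in Map3k6 (2.23 ± 0.52, edgeR adjusted p = 0.00491), Gadd45a (1.88 ± 0.55, adjusted p = 0.0169), Atf3 (1.75 ± 0.40, adjusted p = 0.0044), Gadd45b (1.72 ± 0.48, adjusted p = 0.013) and Map3k13 (-1.46 ± 0.53, adjusted p = 0.0475). At 48 h they were in Atf3 (1.60), Map4k4 (1.56), Ripk3 (1.38), Dusp10 (1.21) and Taok3 (-0.71), and at 72 h in Gadd45g (-2.19), Dusp1 (-1.95), Atf3 (1.66), Ripk3 (1.52) and Map4k4 (1.24). Atf3 was the gene of this list called at every time from 12 to 72 h together with Map4k4, the gene of HGK, a kinase upstream of the MAP3Ks.

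Between genotypes, 0 of the 67 pathway genes tested were called in the pools after APAP (0.579% of all genes), with 16 at an unadjusted p under 0.05, as were 2284 of all 12782 genes, and 0 of 68 were called in LKO mice at 0 h (0% of all genes), with 3 at an unadjusted p under 0.05. The 5 JNK phosphatases had log2 differences of -1.28 to -0.65 between LKO and Control pools (median -1.03, beside -0.01 over all genes), 4 of them among the 2284 genes at an unadjusted p under 0.05 and 0 called. Before APAP, 4 of these 5 already had negative differences between LKO and Control mice, from -1.19 for Dusp4 to 0.29 for Dusp10 (median -0.27), with 2 at an unadjusted p under 0.05 and 0 called. Of the pathway genes in the pools after APAP, Gadd45a came nearest to a call between LKO and Control, at -1.36 ± 0.30 (edgeR, adjusted p = 0.0697). In HKO mice 3 of 66 were called, beside 0.96% of all genes: Map4k4 was higher by 0.87 ± 0.14 (adjusted p = 0.0206) and Tab2 by 0.62 ± 0.11 (adjusted p = 0.0299), and Map2k6, a p38 kinase kinase gene, was lower at -1.71 ± 0.26 (adjusted p = 0.0202).

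In the genome (GRCm38, GENCODE M21 coordinates), the members are protein-coding genes that overlap no other counted gene in their exons. Mapk8 lies at chr14:33377898-33447158 on the minus strand, Mapk9 at chr11:49846751-49886421 on the plus strand, Map2k4 at chr11:65688243-65788297 on the minus strand and Map2k7 at chr8:4238740-4247897 on the plus strand. Map3k5 lies at chr10:19934472-20142753 (plus), Map3k7 at chr4:31964097-32023467 (plus), Map3k8 at chr18:4331327-4353015 (minus), Map3k11 at chr19:5688742-5702865 (plus) and Map3k14 at chr11:103219762-103267472 (minus). Counts cover whole genes, so splice forms, such as those of JNK1, were not told apart.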

How the data were processed

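RNA of snap-frozen mouse liver was sequenced. The authors trimmed reads with Trimmomatic and aligned them to mm10 with STAR, and the deposited files hold STAR's gene counts, unstranded and for either strand; the annotation version is not given in the sources used here. The unstranded counts were used as deposited, without the 4 entries that name no gene, such as reads in no feature (7.29% to 14.7% of reads). Counts were filtered by genotype (filterByExpr), scaled by TMM and fitted with edgeR 4.0.16 in R 4.3.3: HKO against Null, LKO against Control at 0 h, LKO against Control pools with time as a block, and APAP times against 0 h with genotype as a term. The study called genes with DESeq2 (here 1.42.0, an alternative). Calls needed adjusted p under 0.05 and 1.5-fold. The step was tested on simulated counts. Named genes are the members, the 5 largest called changes of the pathway list per comparison, the nearest genes to Map3k8 (mean log2 CPM of at least 1), Map3k9, E2f7 and E2f8. Dusp4, Tab1, Tab3, Tnip2, Nfkb1 and, in the pools, Gadd45a were chosen after their values were seen, as were the single marker genes named. Members and lists were chosen with earlier results of these data known. Exon lengths come from GENCODE M21 basic. With 1 pool per genotype and time, single values carry counting error and the spread of mice, unmeasured there. No libraries were duplicates (lowest chi-square per degree of freedom between a pair of libraries, 15.7).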

Additional observations from a re-analysis of the deposited data

Results flagged for a closer look

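Of 18 groups of 4 mice examined, 9 kinases in Control and in LKO mice at 0 h, 1 held a value far from the other three: Mapk9 at 68.1 CPM in LKO mouse 3, with a gap to the next mouse of 0.833 of the group's range, just past the 95% limit of Dixon's test. Chance flags about 1 in 20 such groups. A test of LKO effect minus HKO effect was made for all 9 kinases and called 0 of them (edgeR; 579 of all 12945 genes had an unadjusted p under 0.05, and DESeq2 called 21).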

How the results depend on the processing

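Counts of kinases called moved by over 1.5 times as follows. With the replicate block, HKO against Null gave 1 of 9 (Map3k5, adjusted p = 0.00661) in place of 0, with 263 of 12397 genes called in place of 119. Same-numbered mice deviated together little or not at all (correlations of -0.0477 to 0.141 in that cohort and -0.345 to 0.193 in the other), so the numbers were not taken as pairs. So few mice cannot settle whether they were paired. DESeq2 gave 1 of 9 (Map3k8) between LKO and Control pools, with 606 of 12782 genes called in place of 74. In LKO libraries alone 1, 0, 0 and 0 kinases were called from 12 to 72 h, and in Control libraries alone 1, 1 and 0 from 24 to 72 h. The second stranded column gave 1 at 48 h (Map3k8 at adjusted p = 0.0542), and leaving out single mice gave 1 to 2 there.

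Signs that turned belonged to changes that were not called. At 0 h, LKO against Control, they were Mapk8 (-0.000456 with RLE, -0.00197 without the filter, -0.033 in the stranded column, -0.012 with the replicate block), Map3k8 (-0.11, stranded) and Map3k11 (0.0081, stranded), and for LKO minus HKO Map2k4 (0.000622) and Map3k5 (0.0036), stranded. The pool difference less that at 0 h was 0.28 for Map3k5 and -0.10 for Map3k14. After APAP they were, in Control libraries alone, Mapk9 at 12 h (0.0196) and Map2k4 at 24 h (-0.0437) and 48 h (-0.058); in LKO libraries alone, Map3k7 at 24 h (0.0035) and 48 h (0.11), Mapk9 at 48, 72 and 96 h (0.12, 0.0239 and 0.18), Map2k4 at 72 and 96 h (0.0801 and 0.0311) and Map3k14 at 96 h (0.0866); and in the stranded column Map3k7 in the pools of 48 h (0.0511) and Map3k14 in those of 96 h (0.15). Map3k8 in the LKO pool of 96 h was 0.99 above its mice in that column. The cause was not tested.

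Leaving out 1 mouse or time gave ranges across 0 at LKO against Control 0 h for Mapk8 (-0.10 to 0.0888), Mapk9 (-0.0869 to 0.0536), Map2k7 (-0.0194 to 0.15), Map3k7 (-0.18 to 3.3e-05), Map3k8 (-0.0351 to 0.36), Map3k11 (-0.11 to 0.0209) and the Mapk8 to Mapk9 ratio (-0.10 to 0.0456); at HKO against Null for Map2k7 (-0.0244 to 0.16); in the pools for Mapk8 (-0.14 to 0.0584), Map2k7 (-0.15 to 0.0472) and Map3k11 (-0.22 to 0.0018); after APAP for Map3k7 at 48 h (-0.0597 to 0.0223), Map2k4 at 72 h (-0.10 to 0.0188), and Mapk9 and Map3k14 at 96 h (-0.0549 to 0.0013 and -0.0672 to 0.0402); and for LKO minus HKO for Mapk9 (-0.21 to 0.00032), Map2k4 (-0.13 to 0.10), Map2k7 (-0.0847 to 0.0934), Map3k5 (-0.26 to 0.31) and Map3k8 (-0.44 to 0.0789). Map3k8 between pools ranged from -1.77 to -1.04 over 12 alternatives (adjusted p = 0.0158 to 0.764). Over all genes, calls between pools were also 0 (without the time block, or less the difference at 0 h) and 337 (no filter), and from 9 to 177 leaving out a time. HKO calls were also 255 (no filter) and 331 (DESeq2), and 54 to 297 leaving out a mouse. Over the 5 times after APAP, 4023, 3319, 1947, 1986 and 54 genes were called, against 1214, 1035, 105, 179 and 6 in LKO and 3011, 1574, 1373, 1192 and 4 in Control libraries alone, which hold fewer samples. The 54 of the last time became 25 (stranded column) and 325 (DESeq2), and 20 to 85 leaving out a mouse. Low counts limit Map3k8 and Map3k14, and single pools limit every time after APAP.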
